A study of Mus musculus with 7 samples.

Results

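The 9 genes Pvalb, Syt2, Lhx6, Cox6a2, Vwc2, Pthlh, Nefh, Sox6 and Satb1 mark parvalbumin interneurons and were examined in the medial prefrontal cortex of mice. They were found by symbol among the 17732 gene IDs of the authors' deposited table. All 9 were present, each with 1 ID. The tissue came from wild-type males of the inbred strain 129SvEv and was taken after remote memory retrieval. The 7 bulk poly(A) RNA libraries fall into 2 groups that share strain, sex and genotype, with 3 libraries named CFC and 4 named SC. The labels spell out neither name and give no age. They do not say whether a library is 1 animal, so the p-values measure only the spread between these libraries.

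Parvalbumin interneurons are fast-spiking inhibitory cells that arise in the medial ganglionic eminence and contact the cell body, proximal dendrites or axon initial segment of pyramidal neurons. They fire long trains of brief spikes, which calls for fast potassium channels, fast transmitter release, calcium buffering and a high supply of mitochondrial energy. In cortex many of them carry a perineuronal net and a myelinated proximal axon. The series concerns these cells, oligodendrocytes and the extracellular matrix in safety learning, and the comparison of the groups bears on whether the interneuron transcripts differed between them.

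The authors' deposited table gives, for each gene, the mean of its normalized counts, a fold change between CFC and SC on the log2 scale with a standard error, and p-values, but nothing for single libraries. It does not state which group is the numerator, so a negative or positive sign names no group as the higher one. Below, a log2 difference is that fold change, written ± its standard error. The depth of the libraries is unknown. The mean normalized counts ran from 1.26 to 153564 in the authors' deposited table, with a median of 255 over the 17729 genes with a p-value. In bulk tissue, fewer cells of a type and less RNA per cell cannot be told apart.

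None of the 9 genes was called different between the groups. Of the 8 members with an adjusted p-value in the authors' deposited table, 0 were under 0.05 by the authors' Wald test, beside 0.513% of all 13060 genes with such a value. With the unadjusted p-value the count under 0.05 was 0 of 9, beside 6.82% of 17729 genes. Of the log2 differences in the authors' deposited table, 6 were negative and 3 positive, from -0.23 for Pvalb to 0.15 for Vwc2, with a median of -0.094, beside 0.0010 over all genes. All 9 of the 95% intervals computed from that table held 0. What separated the members was how closely each difference was measured: the standard errors in the authors' deposited table ran from 0.09 for Lhx6 to 0.46 for Syt2.

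**Figure D1:**
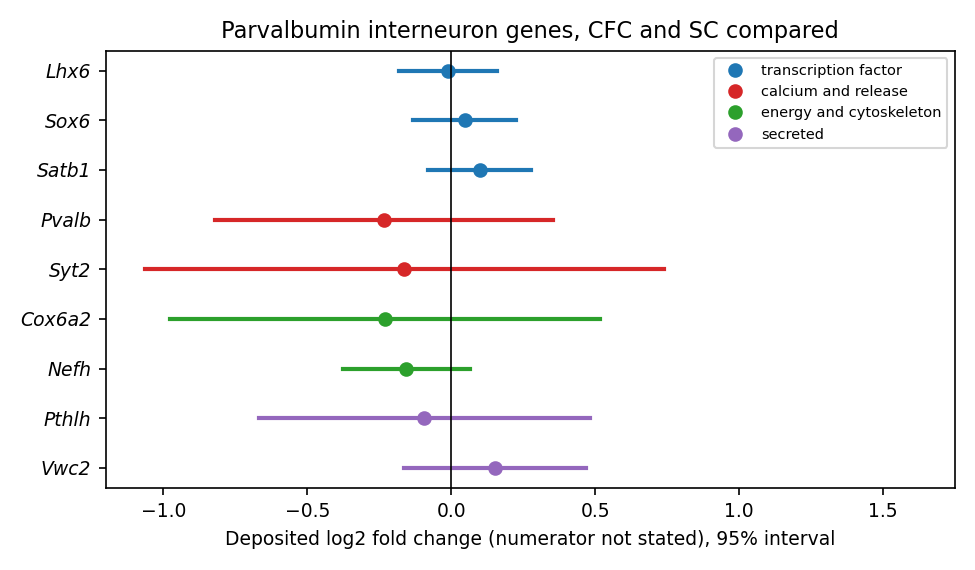
Log2 difference of each member, from the authors' deposited table (points), with the 95% interval computed from its standard error (lines), coloured by role. All 9 intervals cross 0; those of Lhx6, Sox6 and Satb1 are narrow and those of Syt2, Cox6a2 and Pvalb are wide.

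Lhx6, Sox6 and Satb1 are transcription factors of the lineage. Lhx6 is a LIM-homeobox factor that directs cells of the medial ganglionic eminence to the parvalbumin and somatostatin fates. Sox6 acts after it in their migration and maturation, and is also made by oligodendrocyte precursors. Satb1 is a chromatin organizer that acts in the maturation of these interneurons and is transcribed in other cortical neurons too.

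Lhx6 (ENSMUSG00000026890) lies on chromosome 2 from 36081953 to 36105408, minus strand, in the GRCm38 assembly. Its mean normalized count in the authors' deposited table was 523, and its log2 difference was -0.011 ± 0.09 (adjusted p-value 0.999, the authors' Wald test). The 95% interval ran from -0.18 to 0.16, which on the linear scale is 0.882 to 1.12 times. This is the smallest difference and the smallest standard error of the 9 genes, and Lhx6 is the member that marks the lineage as a whole.

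Sox6 (ENSMUSG00000051910; chromosome 7, 115470872 to 116038796, minus strand) had a mean normalized count of 638 and a log2 difference of 0.05 ± 0.09 in the authors' deposited table. Its interval ran from -0.13 to 0.23. Satb1 (ENSMUSG00000023927; chromosome 17, 51736187 to 51833290, minus strand) was the most abundant member, with a mean normalized count of 3830 and a log2 difference of 0.10 ± 0.09 in the authors' deposited table. Its interval ran from -0.08 to 0.28. The adjusted p-values of Sox6 and Satb1 in the authors' deposited table were 0.999 and 0.962. On the linear scale, the intervals of all 3 factors lay between 0.882 times, the lower bound of Lhx6, and 1.21 times, the upper bound of Satb1.

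Pvalb and Syt2 serve calcium handling and transmitter release. Pvalb encodes parvalbumin, an EF-hand protein that buffers calcium in fast-spiking cells and in fast muscle. Syt2 encodes synaptotagmin 2, the calcium sensor that triggers fast release at the terminals of parvalbumin cells. Both differences were negative in sign, and both were poorly resolved.

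Pvalb (ENSMUSG00000005716; chromosome 15, 78191114 to 78206400, minus strand) had a mean normalized count of 277 and a log2 difference of -0.23 ± 0.30 in the authors' deposited table. Its Wald test gave an adjusted p-value of 0.991. On the linear scale the 95% interval ran from 0.566 to 1.28 times. Syt2 (ENSMUSG00000026452; chromosome 1, 134646677 to 134762593, plus strand) had a similar mean normalized count of 310 and a log2 difference of -0.16 ± 0.46 in the authors' deposited table (adjusted p-value 0.999). Its interval ran from 0.479 to 1.67 times. Each of these intervals was more than 3 times as wide on the log2 scale as that of any of the 3 transcription factors.

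Cox6a2 and Nefh belong to energy supply and the axonal skeleton. Cox6a2 encodes the heart and muscle isoform of subunit 6A of cytochrome c oxidase, which in cortex is made mainly by parvalbumin interneurons. Nefh encodes the heavy neurofilament chain, a component of large axons that projection neurons make as well.

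Cox6a2 (ENSMUSG00000030785; chromosome 7, 128205435 to 128206387, minus strand) had the lowest mean normalized count of the 9, 23.0, with a log2 difference of -0.23 ± 0.38 (unadjusted p-value 0.544) in the authors' deposited table. That table gives it no adjusted p-value: the lowest mean count with one was 34.9. In GENCODE M21, 70 bases of its exons, 10.3% of them, are shared with exons of Itgad on the opposite strand, and the strand setting of the counting is not given in the sources used here. The muscle markers listed for comparison were sparse: of 8, 5 were measured, with mean normalized counts from 8.59 for Mylpf to 136 for Acta1 in the authors' deposited table, and 0 of the 5 had an unadjusted p-value under 0.05. The other 3 (Ckm, Tnnt3 and Tnnc2) were not found by symbol among the genes with a p-value.

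Nefh (ENSMUSG00000020396; chromosome 11, 4938754 to 4948064, minus strand) had the smallest p-value of the members. Its mean normalized count was 1006 and its log2 difference -0.16 ± 0.11 in the authors' deposited table (unadjusted p-value 0.165, adjusted 0.887). The interval ran from -0.38 to 0.06. The other neurofilament chains also had negative signs: Nefl, the light chain, was at -0.18 ± 0.08, and Nefm, the medium chain, at -0.23 ± 0.20, in the authors' deposited table. The internexin gene Ina was at -0.07 and the peripherin gene Prph at -0.49 in the authors' deposited table. Only Nefl among these 5 chains had an unadjusted p-value under 0.05 (0.016), and its adjusted p-value in the authors' deposited table was 0.430. The chains are made by many neurons, so these values do not belong to parvalbumin cells alone.

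Pthlh and Vwc2 encode secreted proteins. Pthlh encodes parathyroid hormone-related protein, a signal that acts through the receptor Pth1r. Vwc2 encodes brorin, an extracellular antagonist of bone morphogenetic proteins.

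Pthlh (ENSMUSG00000048776; chromosome 6, 147252101 to 147264183, minus strand) had a mean normalized count of 35.6, just over the authors' filter, and a log2 difference of -0.09 ± 0.29 in the authors' deposited table (adjusted p-value 0.999). Its interval ran from 0.629 to 1.40 times. The receptor gene Pth1r had a log2 difference of 0.15 ± 0.19 in the authors' deposited table. Vwc2 (ENSMUSG00000050830; chromosome 11, 11114223 to 11268931, plus strand) had a mean normalized count of 149 and a log2 difference of 0.15 ± 0.16 in the authors' deposited table (adjusted p-value 0.984). The related gene Vwc2l was at 0.25 ± 0.15 in the authors' deposited table. All of these intervals held 0.

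To set the members side by side, each mean normalized count was divided by the length of the gene's exons in GENCODE M21. Per kilobase of the union of exons, Pvalb was the highest member at 267, followed by Nefh at 252 and Satb1 at 201.3. Lhx6 was at 109, and Sox6, Syt2 and Cox6a2 followed at 43.0, 40.5 and 33.8. Vwc2 and Pthlh were lowest, at 24.6 and 22.0. The order depends on the transcript counted: with the longest protein-coding transcript in place of the union, Satb1 was at 614 and stood above Pvalb at 284, while Vwc2, at 44.1, came next to Syt2 at 45.0. These levels carry no spread in the table, so neighbours in the order were not tested. Satb1, Nefh and Sox6 are also made by other cells, and Lhx6 marks the somatostatin lineage as well. The levels of these genes in bulk cortex are therefore not those of parvalbumin cells alone. Apart from Cox6a2, the members that share exon bases with another annotated gene are Lhx6 (2.16% of its exon length, with Gm27953) and Satb1 (0.820% with Gm36931 and 0.673% with Gm6934).

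Cox6a2 and Syt2 were each scarce beside the relative compared with them by level, and other synaptotagmins were not compared. Per kilobase of the exon union, Cox6a1, the general form of the oxidase subunit, was 92.0 times as abundant as Cox6a2. Syt1, the synaptotagmin of most forebrain synapses, was 110 times as abundant as Syt2. The level of Sst, the peptide gene of the sister class of interneurons, was 13.1 times that of Pvalb. With the longest protein-coding transcript as the length these ratios were 113, 171 and 12.3. Cox6a1 and Syt1 had log2 differences of -0.09 ± 0.06 and 0.0079 ± 0.06 in the authors' deposited table. Sox5, a relative of Sox6, was at 0.06 in the authors' deposited table. Calb1 and Ocm, which like Pvalb encode EF-hand calcium-binding proteins, were at -0.21 and -1.75 in the authors' deposited table, Ocm with a mean normalized count of 1.96 that resolves no difference.

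**Figure D2:**
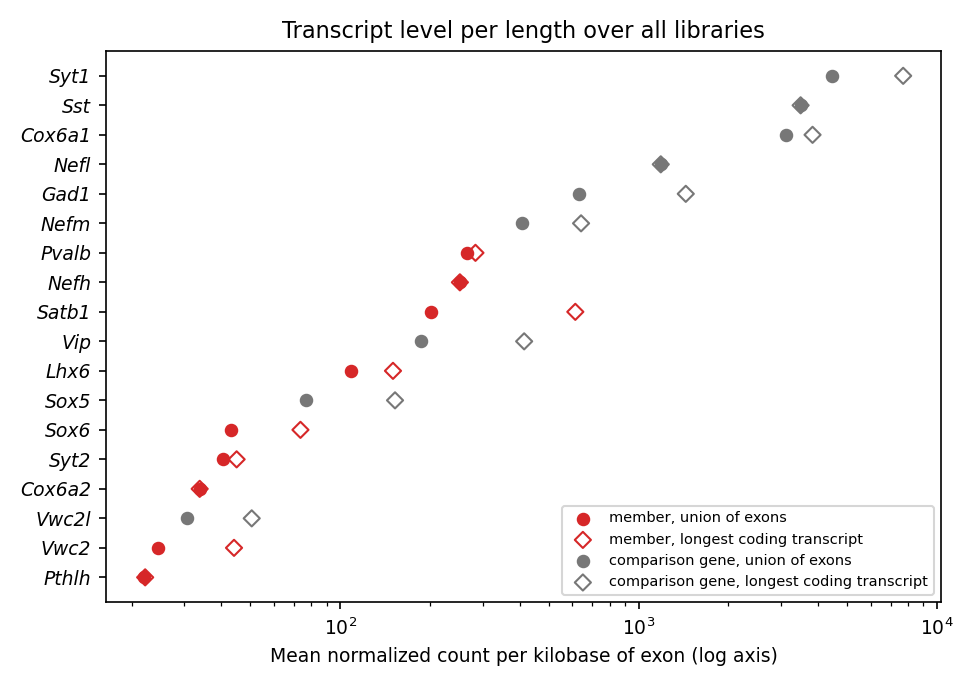
Mean normalized count per kilobase over all 7 libraries (log axis) for the 9 members (red) and 9 comparison genes (grey), with the union of exons (filled) or the longest protein-coding transcript (open) as the length. Pvalb, Nefh and Satb1 are the highest members; Satb1 moves from 201.3 to 614 with the length used.

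The standard errors set the members apart more than the differences did. Each deposited standard error was divided by the median of the genes nearest to it in mean count, so that a ratio of 1 is the usual precision at that abundance. Syt2 had a ratio of 4.05 and Pvalb of 2.52. These 2 of 9 members were over a ratio of 2, as were 1.45% of the 17729 genes with a p-value. Only 0.237% of genes had a higher ratio than Syt2 and 1.02% a higher one than Pvalb.

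Satb1 and Nefh came next, at 1.51 and 1.47, with 1.64% and 1.90% of genes above them. The other 5 members were at the usual precision: Sox6 at 1.05, Vwc2 at 1.04, Cox6a2 at 1.02, Pthlh at 0.962 and Lhx6 at 0.925. The wide intervals therefore have different make-ups. For Cox6a2 and Pthlh they are those of any gene of such a low count, whereas for Pvalb and Syt2 they are wide for genes of their abundance.

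**Figure D3:**
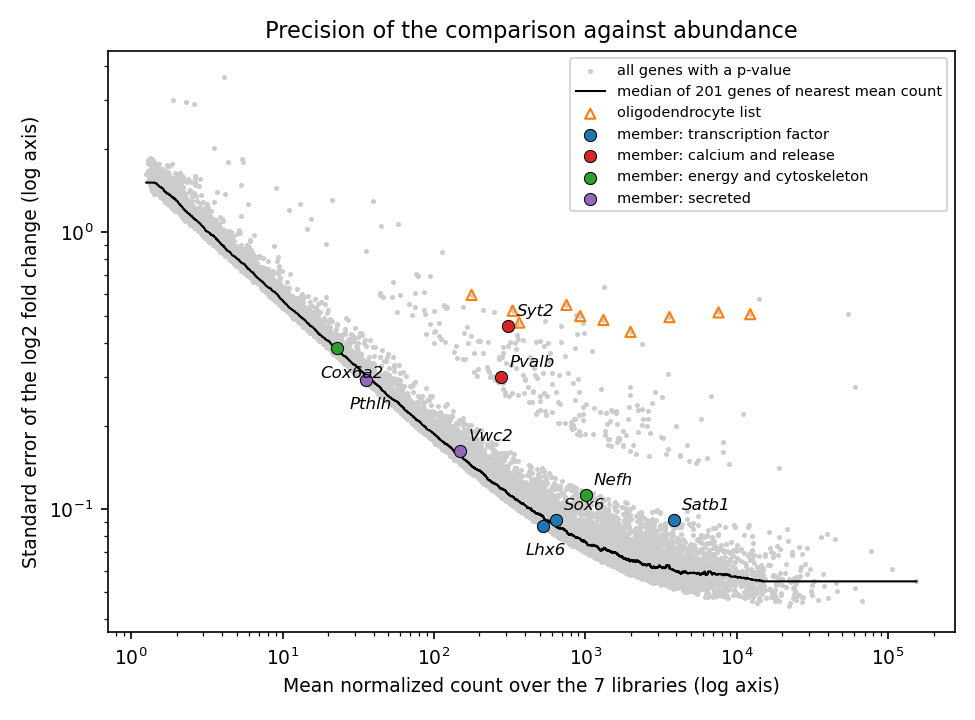
Standard error of the log2 difference against mean normalized count, both from the authors' deposited table (both axes log); grey points are all genes with a p-value, the line is the running median of genes of like count, coloured points are the members and triangles the oligodendrocyte list. Syt2 and Pvalb lie above the band of most genes, Nefh and Satb1 at its upper edge, and the other 5 members near the line.

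The same contrast appears when counting error is set apart. With 3 and 4 libraries of equal depth, counting alone would give Syt2 a standard error of 0.06 and Pvalb one of 0.07, against 0.46 and 0.30 in the authors' deposited table. Counting thus makes up 1.86% of the variance for Syt2 and 4.86% for Pvalb. For Cox6a2 and Pthlh it makes up 36.4% and 39.6%, and for Lhx6 30.6%.

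The rest of the variance corresponds, under the same simple model, to a coefficient of variation between libraries of a group. It came to 41.3% for Syt2 and 26.6% for Pvalb, beside a median of 8.62% over the 2902 genes with mean counts from 200 to 500. It was 6.58% for Lhx6, 7.27% for Sox6, 8.10% for Satb1 and 9.67% for Nefh. The scarcer Vwc2, Pthlh and Cox6a2 were at 12.2%, 20.7% and 27.6%. The model also takes the group means as equal, and these coefficients are implied by the deposited standard errors, not measured from single libraries. DESeq2, named in the processing notes, draws each gene's estimated spread toward that of genes of like mean count. Values near the usual one may therefore partly reflect those other genes.

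**Figure D4:**
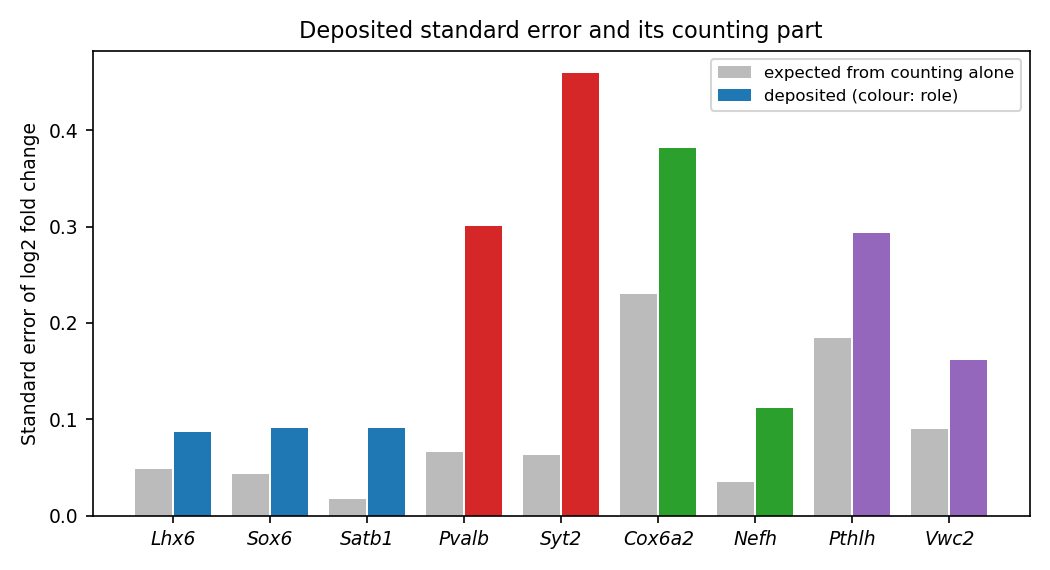
For each member, the standard error of the log2 difference expected from counting alone (grey bars) beside the one in the authors' deposited table (coloured bars, colour by role as in the plot of fold changes). Syt2 and Pvalb have small counting parts, 0.06 and 0.07, and large deposited values, 0.46 and 0.30; for Cox6a2 and Pthlh the 2 bars are closer.

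These precisions set what the comparison could have called. The smallest absolute Wald statistic among the 67 genes called in the authors' deposited table was 3.68. At their standard errors, Lhx6, Satb1 and Sox6 would have reached it with a change of 1.25, 1.26 and 1.26 times, Nefh with 1.33 and Vwc2 with 1.51. Pthlh and Pvalb would have needed 2.12 and 2.15 times, and Syt2 3.23 times. Cox6a2, which has no adjusted p-value because its mean count is below the filter, could not have been called at that mean count, whatever the change. An observed change of 2 times in Pvalb or Syt2 would not have been called in these libraries.

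Other genes of fast-spiking cells were read from lists beside the members. Of 11 ion channel genes of fast spiking, 8 were negative and 3 positive, with a median log2 difference of -0.07 in the authors' deposited table. By the authors' Wald test 3 were under 0.05 before adjustment and 0 after it, beside 6.82% and 0.513% of all genes. Among them, Kcna1, an axonal potassium channel, was at 0.19 ± 0.08 and Kcnab3, a potassium channel beta subunit, at -0.28 ± 0.14, in the authors' deposited table. Their adjusted p-values there were 0.391 and 0.598. The channels Kcnc1 and Kcnc2, which give these cells their fast repolarization, were at -0.03 ± 0.07 and -0.10 ± 0.06 in the authors' deposited table. Their intervals, from -0.17 to 0.11 and from -0.23 to 0.02, are narrower than that of Lhx6.

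Of 12 further genes linked to these cells, 7 were positive and 5 negative, with a median of 0.03, and 0 of the 10 with an adjusted p-value were called by the authors' Wald test. At an unadjusted p-value under 0.05 by that test, 3 of the 12 stood out (0.0026, 0.0130 and 0.0224), beside 6.82% of all genes. These were Plcxd3 at 0.54, Gpr149 at 1.35 and Unc5b, a netrin receptor found in chandelier cells, at 0.81 in the authors' deposited table. All 3 were positive, as were 717 of the 1209 genes at that threshold. The adjusted p-values of Plcxd3 and Unc5b were 0.185 and 0.488 by the same test. Gpr149 had a mean normalized count of 12.5 and no adjusted p-value. Ppargc1a, a coactivator known to sustain Pvalb, Syt2 and Cplx1 in these neurons, was at -0.05 ± 0.09 in the authors' deposited table. Cplx1, a complexin of the release machinery, was at -0.12 ± 0.15, and the neuregulin receptor gene Erbb4 at 0.13 ± 0.07, in the authors' deposited table.

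On the lists of channels, further parvalbumin cell genes, relatives and net genes, single genes also had wide standard errors, and most genes did not. The ratio to neighbours of like count was 2.63 for the sodium channel gene Scn1a, 2.52 for Cplx1 and 3.0 for Unc5b. It was 3.18 for Nefm, and 3.14 for Hapln4, a link protein of the perineuronal net. On these lists 1 of 11 channel genes, 2 of 12 further parvalbumin cell genes, 1 of 13 measured relatives and 1 of 7 net genes were over 2, beside the 1.45% of all genes. Ppargc1a, Kcnc1 and Kcnc2 were at 1.28, 1.17 and 1.01. These genes are named for their ratios, and whether they share a theme was not tested. All 7 net genes were negative, from -0.27 for Acan to -0.0043 for Ncan in the authors' deposited table, and 0 had an unadjusted p-value under 0.05, the smallest being that of Bcan (0.186).

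The wider lineage held genes of both signs. Of 11 transcription factors of the ganglionic eminences, 9 were positive and 2 negative, and 0 of the 9 with an adjusted p-value were called by the authors' Wald test. Before adjustment, 5 of the 11 were under 0.05, beside 6.82% of all genes. In the authors' deposited table Maf, which acts with Lhx6 in the medial lineage, stood at -0.29 ± 0.09. Sp9, Dlx2 and Lhx8 were positive at 0.59, 0.45 and 4.56 in the authors' deposited table, Lhx8 with a mean normalized count of 5.30 and no adjusted p-value. For Maf the adjusted p-value was 0.136 (authors' deposited table), and the microglia list stood beside it with 6 of 6 genes negative and a median of -0.13. Maf is also made by microglia, whose part in this value was not tested.

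The general GABA genes were close to 0. Gad1 and Gad2, the enzymes of GABA synthesis, were at -0.01 ± 0.07 and 0.09 ± 0.06 in the authors' deposited table, and Slc32a1, the vesicular transporter, at -0.08 ± 0.08. The 5 genes of this list had standard error ratios from 0.856 to 1.12. The intervals of Gad1 and Gad2, from -0.14 to 0.12 and from -0.03 to 0.20, were narrower than those of all 9 members.

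Genes of the other interneuron classes gave the nearest comparison. Of 8 somatostatin cell genes, 5 were negative and 3 positive with a median of -0.0047, and Nos1 alone had an unadjusted p-value under 0.05, at 0.20 (adjusted p-value 0.606) in the authors' deposited table. Sst itself was at 0.03 ± 0.09 in the authors' deposited table, beside the standard error of 0.30 of Pvalb. Of 9 genes of interneurons from the caudal ganglionic eminence, 8 had an adjusted p-value and 1 was called: Cck, a peptide gene that pyramidal neurons also transcribe, at -0.24 (adjusted p-value 0.0436) in the authors' deposited table. Prox1 was at 0.46 with an unadjusted p-value of 9.5e-04 and an adjusted one of 0.117 in the authors' deposited table. Vip was at 0.02 ± 0.09 in the authors' deposited table. Wide standard errors were not limited to parvalbumin cell genes: Ndnf, a marker of neurogliaform cells, was at 0.51 ± 0.46 in the authors' deposited table, with a ratio of 5.38 and an implied coefficient of variation of 41.6%, both above those of Syt2. Lamp5, which is also an upper-layer gene, had a ratio of 2.94. None of the 8 somatostatin cell genes was over 2. The difference between any of these lists and the members was not tested.

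**Figure D5:**
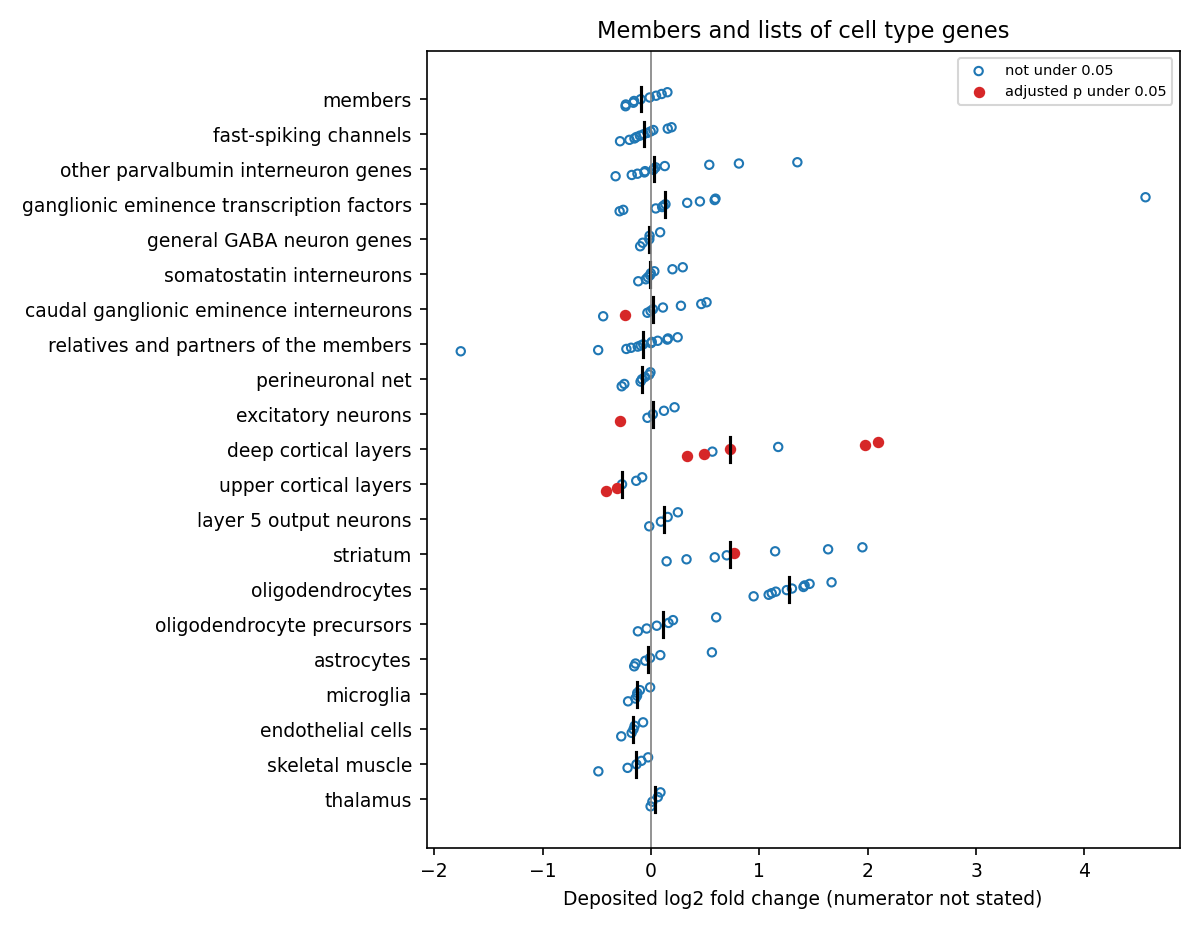
Log2 difference (x axis, from the authors' deposited table) of each measured gene of the members and of 20 lists (circles; filled red where the adjusted p-value is under 0.05), with the median of each list as a bar. The members lie between -0.23 and 0.15 with a median of -0.094; the oligodendrocyte, deep-layer and striatum lists lie wholly above 0.

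Genes called by the authors' Wald test were found on the lists of cortical layers, of striatum and of excitatory neurons. In the authors' deposited table, 7 of 7 deep-layer genes were positive with a median of 0.73 and 5 called, and 5 of 5 upper-layer genes were negative with a median of -0.27 and 2 called. All 8 striatum genes were positive with a median of 0.73 and 1 called. That gene was Drd1, at 0.76 ± 0.13 (adjusted p-value 3.7e-05, the authors' Wald test), with a standard error ratio of 1.25. Drd2 and Adora2a were not called, with adjusted p-values of 0.461 and 0.286 by the same test. The ratio of Drd1 was the lowest of the striatum list, which reached 4.10, and lay within the 1.14 to 2.72 of the deep-layer list. Whether the call of Drd1 belongs to striatal cells was not tested. All 10 oligodendrocyte genes were positive with a median of 1.28 and 0 called. By the unadjusted p-value under 0.05, these lists gave Tle4, Foxp2, Hs3st4, Ccn2, Nxph4, Cplx3 and Syt6 of deep layers, Cux2, Otof and Rasgrf2 of upper layers, and Drd1, Drd2, Ppp1r1b, Adora2a and Rgs9 of striatum. They also gave, among others, Mbp, Mog, Mag, Mobp, Cnp, Mal, Ermn, Cldn11 and Opalin of oligodendrocytes. Camk2a, a kinase of excitatory neurons, was called at -0.29 ± 0.06 (adjusted p-value 0.0015) in the authors' deposited table, the 1 call among 5 genes of that list. The remaining genes under 0.05 before adjustment included Tbr1 of excitatory neurons, Crym of layer 5, Sox10 of oligodendrocyte precursors, Slc1a3 of astrocytes, Csf1r of microglia, and Flt1 and Tek of endothelial cells. The defining striatum genes Drd2 and Adora2a were measured at mean normalized counts of 77.9 and of 76.0 by the authors' deposited table. Parvalbumin cells are present across these layers and in striatum, and the part of such markers in the values of the members was not tested.

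Several of these lists held wide standard errors. All 10 oligodendrocyte genes had a ratio over 2, from 4.15 to 9.09, and 7 of 8 striatum genes did, beside 3 of 7 deep-layer genes. On the scale of the implied coefficient of variation, the oligodendrocyte genes ran from 39.6% to 53.5%. Syt2, at 41.3%, lies within that range, and Pvalb, at 26.6%, lies below it. The striatum genes ran from 10.9% to 63.3%, a range that holds both Syt2 and Pvalb. The genes of microglia and general GABA neurons had ratios up to 1.31 and 1.12. Those of upper layers reached 1.43 among the 5 that stand on no other list, and 2.94 with Lamp5. The astrocyte gene Gfap was at 5.66 and the layer 5 gene Etv1 at 4.25. Of the thalamus genes, Rora had a ratio of 3.60 and the other 3 were at 1.01 to 1.03, with Tcf7l2 at 0.09 and Prkcd at 0.01 in the authors' deposited table. Whether Pvalb and Syt2 were high in the same libraries as the oligodendrocyte, striatum or other genes was not tested. Values of single libraries were not analysed here.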

How the data were processed

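Per the labels' protocols, libraries were made from 100 ng of RNeasy-purified RNA by the KAPA mRNA HyperPrep method. The submitters' processing notes name Trimmomatic, Subread, DESeq2 and the build mm10, with no roles or versions. The authors deposited 1 table, read as the comparison of CFC with SC because the labels hold no other groups. Per the file headers, it gives a mean normalized count (a signal averaged over libraries), the log2 fold change with its standard error, the Wald statistic (a score) and a p-value with its adjusted form. The statistic equalled the fold change over its error, and the p-value its two-sided normal probability, in all 17729 genes with one.

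Computed here, with Python 3.11.15, numpy 2.4.6, pandas 2.3.3 and scipy 1.17.1, were 95% normal intervals and standard errors relative to 201 genes of nearest mean count. So were levels per kilobase of GENCODE M21 (GRCm38, the assembly of mm10) exons. Counting error was taken as the square root of (1/3 + 1/4) divided by the mean count, on the natural log scale. The implied coefficient of variation came from the remaining variance, with equal depth and equal group means assumed. The ratio of standard errors and the implied coefficient of variation were tested on simulated data, without a DESeq2 fit. The intervals and the levels per kilobase were not.

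No edgeR fit was made, because the table holds no counts per library, and the planned fallback, the authors' p-values with a threshold of 0.05, was used. Named were all 9 members and their relatives, and from each list the genes with an unadjusted p-value under 0.05, or else that with the smallest. Others (among them Gad1, Gad2, Slc32a1, Sst, Vip, Kcnc1, Kcnc2, Ppargc1a, Cplx1, Erbb4 and genes with wide errors such as Ndnf, Lamp5, Gfap and Etv1) were added after their values had been seen. Some genes that this rule names are not reported here. The 20 lists hold 156 genes, of which 5 that stood on several lists were left out of the counts. The members and lists were chosen with earlier results of these data known.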

Additional observations from a re-analysis of the deposited data

How the results depend on the processing

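No paired analysis was possible because single libraries have no values in the table. For the same reason the planned fits without each replicate, with a replicate block, or with other normalizations and count filters were not run. Whether 1 library sets the spread of Pvalb and Syt2 was therefore not tested. Of 98 alternatives, 94 gave the same call, sign or size, some of them by construction. The count of members called was 0 under a threshold of 0.1, at an unadjusted p-value under 0.05, with no filter on the mean count and with a mean count of at least 100, and the count over a standard error ratio of 2 was 2 with a wider window of neighbouring genes. The smallest unadjusted p-value of a member was 0.165 (Nefh, the authors' Wald test), above 0.05 and 0.1. No adjustment lowers a p-value, so these counts of members called could not have been higher. All 9 intervals held 0 at 99% as well, which had to follow, because each contains the narrower interval that already held 0. The counts called and the 99% intervals are therefore no test of robustness. The median log2 fold change of the list of relatives changed its sign from -0.07 to 0.0011 with only genes of 100 or more mean counts, which leaves out low genes such as Ocm and Prph. With the longest protein-coding transcript, the levels per kilobase of Satb1, Sox6 and Vwc2 moved by over 1.5 times, to 614, 73.6 and 44.1. The alternatives of the 99% interval, the ratio of 1.5, the shared genes and the transcript length were chosen after seeing the data.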
